A study of Mus musculus with 8 samples.

Results

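Toll-like receptors, their co-receptors and their adaptor were followed in macrophages of the mouse mammary gland. The genes are the receptors Tlr2, Tlr3, Tlr4, Tlr7, Tlr8, Tlr9 and Tlr13, the co-receptors Cd14 and Ly96, and the adaptor Myd88. They form a list by name, which uses none of their signals. Each enters by the probe set that carries its symbol alone and has the highest mean signal over the arrays. The 10 genes are among 18193 with such a probe set.

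Collagenase-digested mammary glands were sorted for Cd11b-PE staining, and RNA of 3 mice was pooled for each of 8 Affymetrix mouse arrays. All mice were FVB females, 6 weeks old at the start, and all received dimerizer, controls included. The groups were MMTV-iFGFR1 transgenic mice after 48 hours of dimerizer, non-transgenic controls after 48 hours, transgenic mice after 4 weeks and non-transgenic controls after 4 weeks, with 2 pools each. MMTV-iFGFR1 is an inducible fibroblast growth factor receptor whose promoter is active mainly in mammary epithelium, and dimerizer brings its molecules together. The title, source and genotype labels of transgenic 4 weeks pool 2 call its mice transgenic, while its free-text description calls them non-transgenic; it was used as transgenic here. Cd11b is also carried by monocytes, neutrophils and some dendritic cells, so the sort does not select macrophages alone.

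Toll-like receptors are membrane proteins that recognise conserved molecules of microbes. TLR2 and TLR4 sit at the cell surface and read bacterial lipoproteins and lipopolysaccharide, TLR4 with the help of CD14 and of MD-2, the product of Ly96. TLR3, TLR7, TLR8, TLR9 and TLR13 read nucleic acids in endosomes. Most of these receptors signal through MyD88 to NF-kB and inflammatory cytokines, whereas TLR3, and TLR4 from endosomes, use TRIF to reach interferon regulatory factors and type I interferon.

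The promoter windows of Tlr2, Tlr3 and Myd88 are shown because target genes of NF-kB and of interferon are measured beside these genes below. The sequences are from RefSeq, build GRCm38.p6, and run from 250 bases before to 50 after the start that the RefSeq window table uses, with capitals marking motif matches. For Tlr2 and Tlr3 that start lies inside the gene limits given below: the Tlr2 window reaches only partly beyond the outer end of the gene, and the Tlr3 window lies wholly within it. RefSeq windows were matched for 6 of the 10 genes, which are Tlr2, Tlr3, Tlr8, Tlr9, Tlr13 and Myd88. The motifs were GGGNNNNNCC for NF-kB, GAAANNGAAA for the interferon-stimulated response element (ISRE) and GAGGAA for PU.1, a myeloid transcription factor, on both strands with overlaps counted. The Tlr2 window lies at chr3:83841559-83841858 (minus strand), the Tlr3 window at chr8:45410331-45410630 (minus strand) and the Myd88 window at chr9:119339969-119340268 (minus strand).
Tlr2: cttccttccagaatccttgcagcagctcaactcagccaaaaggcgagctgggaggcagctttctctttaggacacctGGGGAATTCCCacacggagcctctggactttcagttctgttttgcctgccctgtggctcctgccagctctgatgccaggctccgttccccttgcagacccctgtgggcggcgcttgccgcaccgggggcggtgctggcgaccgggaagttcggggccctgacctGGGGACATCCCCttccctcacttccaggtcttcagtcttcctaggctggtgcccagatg
Tlr3: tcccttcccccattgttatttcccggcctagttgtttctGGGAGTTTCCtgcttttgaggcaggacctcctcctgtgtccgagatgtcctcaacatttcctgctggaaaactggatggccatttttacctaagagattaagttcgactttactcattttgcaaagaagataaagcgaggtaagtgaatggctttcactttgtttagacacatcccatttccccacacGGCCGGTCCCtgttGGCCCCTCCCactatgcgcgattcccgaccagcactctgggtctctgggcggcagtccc
Myd88: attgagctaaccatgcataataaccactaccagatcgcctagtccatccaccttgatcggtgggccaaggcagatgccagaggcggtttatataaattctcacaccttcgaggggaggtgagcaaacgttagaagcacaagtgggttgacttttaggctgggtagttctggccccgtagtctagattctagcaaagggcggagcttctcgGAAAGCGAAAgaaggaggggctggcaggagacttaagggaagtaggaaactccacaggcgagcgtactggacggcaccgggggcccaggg
The Tlr2 window held 7 overlapping NF-kB matches at 2 places, and the Tlr3 window held 3 separate ones. Of all 32851 RefSeq windows of 300 bases, 50.8% held at least 1 NF-kB match. The Myd88 window held 1 ISRE match, which begins 40 bases before the start used; 3.44% of all windows held one. PU.1 matches were found once in the Tlr8 and Tlr13 windows and at 2 places in the Tlr9 window, against 28.3% of all windows with at least 1. A match describes the letters and is no evidence of binding.

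The deposited signals are linear MAS5 intensities, and a mean trimmed by 2% at each end equals 500 on every array, the authors' scaling target. Array medians were 96.4 to 126.9, and no detection calls came with the values. Csf1r, the receptor for the macrophage growth factor CSF1, had signals of 68311 to 93065 on the 8 arrays, and Adgre1, which encodes F4/80, 9842 to 14627. Itgam, the gene of Cd11b itself, had only 46.8 to 545.4. The ratio of the 3' to the 5' beta-actin control, a measure of RNA integrity, ranged from 6.84 to 13.9 on 7 arrays, while control 4 weeks pool 2 reached 37.0. Each array holds RNA of 3 mice, so the p-values below rest on pool-to-pool spread and not on that of single mice. A lower signal in such bulk RNA can mean fewer cells of a type or less RNA per cell, which cannot be told apart.

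Log2 differences are of log2(signal + 30.8), with an offset taken at the 25th percentile of the table, and were fitted with limma on all 8 arrays. Adjusted p-values are Benjamini-Hochberg values over the 13041 genes kept by a filter on low signals, with a threshold of 0.05. None of the 9 receptor genes kept by the filter passed this threshold in any of the 6 contrasts. The background was 0% of all genes in the contrast at 48 hours and 0% at 4 weeks. Tlr8 did not pass the filter and was not tested. The values below are therefore levels and differences with their errors, none of which is called.

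Tlr2, the surface receptor for bacterial lipoproteins (chr3:83836272-83841824), had signals of 9458 and 10083 in transgenic pools at 48 hours, against 16159 and 12576 in control pools. After 4 weeks it had 9433 and 19711 in transgenic pools, against 10260 and 17146 in control pools. At 48 hours both transgenic pools lay below both control pools, whereas at 4 weeks each genotype had 1 pool near the 48-hour transgenic level and 1 far above it. Tlr2 averaged 9770 ± 442 in transgenic and 14368 ± 2533 in control pools at 48 hours (SD, n = 2 each), a log2 difference of -0.54 (SE 0.34, 95% confidence interval -1.30 to 0.21, adjusted p = 0.976). The difference at 4 weeks was 0.04 (95% confidence interval -0.72 to 0.80, adjusted p = 0.995), with means of 14572 ± 7268 in transgenic and 13703 ± 4869 in control pools.

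Tlr4, the lipopolysaccharide receptor (chr4:66827551-66846581), had 2410 and 2838 in transgenic pools at 48 hours, against 1367 and 1995 in control pools. Its signals at 4 weeks were 2151 and 1543 in transgenic pools, against 3637 and 1142 in control pools. Transgenic pools were thus the higher ones at 48 hours with no overlap, while at 4 weeks the highest and the lowest of all 8 values both came from control pools. The log2 difference at 48 hours was 0.65 (SE 0.45, 95% confidence interval -0.35 to 1.66, adjusted p = 0.976) and at 4 weeks -0.16 (SE 0.45, 95% confidence interval -1.17 to 0.84, adjusted p = 0.995). Of the 4 probe sets for Tlr4, a second bright one had 1150 and 883 in transgenic pools at 48 hours, against 841 and 857 in control pools. Its difference at 48 hours was 0.24 (SE 0.27), and on control 4 weeks pool 2, where the first probe set was lowest, it was near its own mean. The remaining Tlr4 probe sets were dim, with signals of 7.3 to 144.3 and 3.1 to 76.6.

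Cd14, the co-receptor that hands lipopolysaccharide to TLR4 and MD-2, had 49269 and 42064 in transgenic pools at 48 hours, against 67240 and 50243 in control pools. At 4 weeks it had 48753 and 64929 in transgenic pools, against 51106 and 58035 in control pools. Its 48-hour transgenic pools were below its control pools, as for Tlr2, by a log2 difference of -0.35 (SE 0.20, 95% confidence interval -0.80 to 0.10, adjusted p = 0.976). The genotypes overlapped at 4 weeks, where the difference was 0.05 (95% confidence interval -0.40 to 0.50).

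Ly96, which encodes the lipopolysaccharide-binding partner MD-2 of TLR4 (chr1:16688456-16709605), had 1848 and 1522 in transgenic pools at 48 hours, against 1261 and 1450 in control pools. After 4 weeks the transgenic pools had 1513 and 1625, against 2383 and 1878 in control pools. The genotypes did not overlap at either time, and their order turned: transgenic pools were higher at 48 hours and lower at 4 weeks. The log2 difference was 0.30 at 48 hours (SE 0.24, 95% confidence interval -0.24 to 0.85, adjusted p = 0.976) and -0.43 at 4 weeks (SE 0.24, 95% confidence interval -0.97 to 0.12, adjusted p = 0.981). The test of the turn itself, the 4-week difference minus the 48-hour one, gave -0.73 (SE 0.34, 95% confidence interval -1.50 to 0.04, adjusted p = 0.988). Over the 4 groups the control pools at 4 weeks were highest and the control pools at 48 hours lowest, with the transgenic pools of both times overlapping in between.

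**Figure D1:**
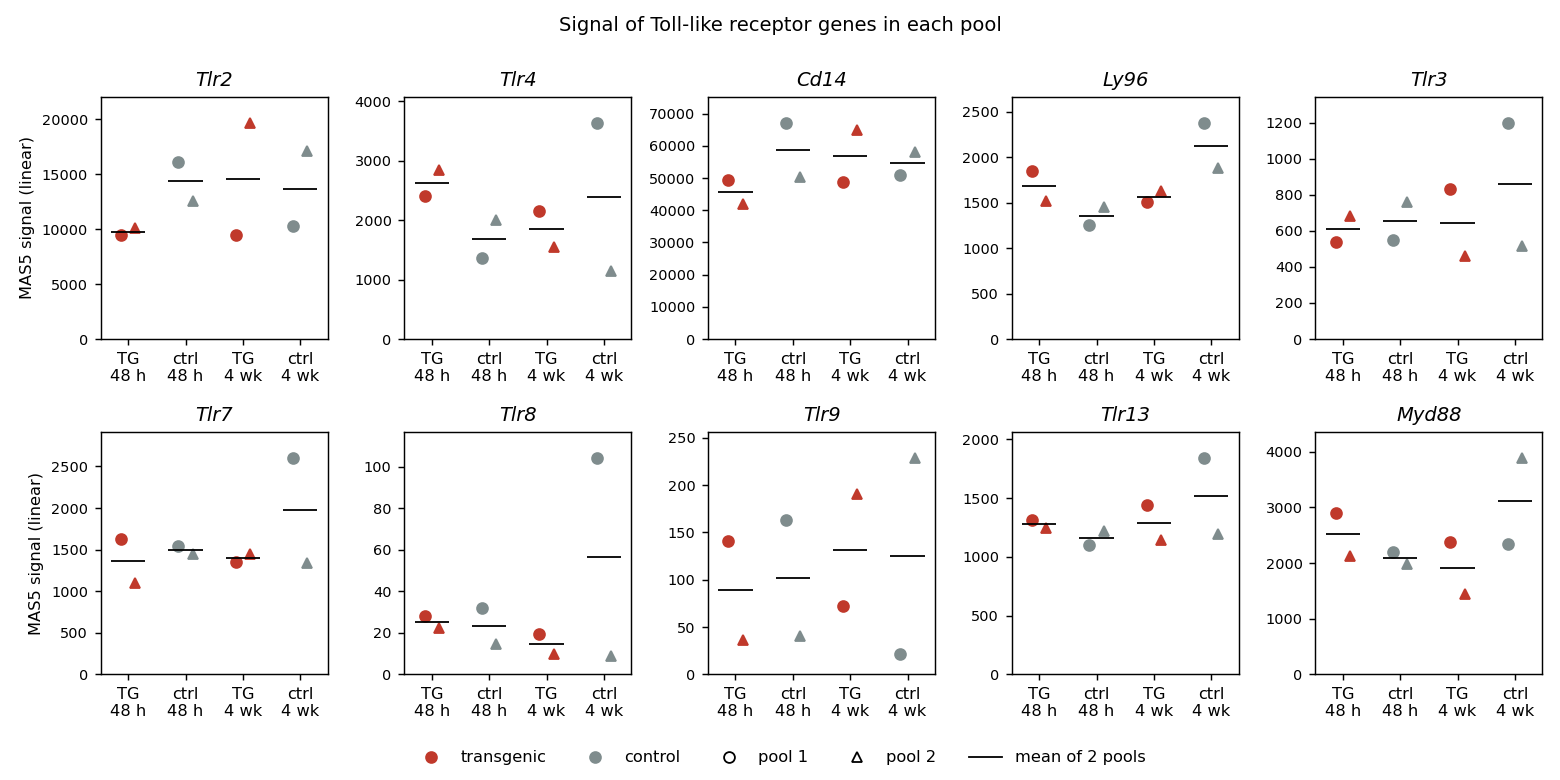
Linear MAS5 signal (y axis, from 0, a scale of its own for each gene) of the 10 genes in each pool, with transgenic (red) left of control (grey) at 48 hours and at 4 weeks; circles are pool 1, triangles pool 2 and bars the mean of 2 pools. At 4 weeks the control pools of Tlr4, Tlr3 and Tlr7 lie far apart, while those of Ly96 both lie above the transgenic pools.

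Tlr3, the receptor for double-stranded RNA (chr8:45395665-45411075), had 539 and 680 in transgenic pools at 48 hours, against 551 and 759 in control pools. It had 832 and 460 in transgenic pools at 4 weeks, against 1200 and 515 in control pools. The genotypes overlapped at both times. The log2 difference was -0.09 at 48 hours (SE 0.42, adjusted p = 0.990) and -0.33 at 4 weeks (SE 0.42, adjusted p = 0.995). A dimmer Tlr3 probe set gave 0.31 (SE 0.62) and 0.40 (SE 0.62), the opposite sign.

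Tlr7, which reads single-stranded RNA (chrX:167303380-167330574), had 1625 and 1096 in transgenic pools at 48 hours, against 1539 and 1447 in control pools. At 4 weeks it had 1351 and 1448 in transgenic pools, against 2602 and 1344 in control pools. A single control pool at 4 weeks stood above an otherwise narrow range. The log2 difference was -0.16 at 48 hours (SE 0.33, adjusted p = 0.984) and -0.41 at 4 weeks (SE 0.33, 95% confidence interval -1.14 to 0.32, adjusted p = 0.986).

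Tlr13, a receptor for bacterial ribosomal RNA that mice have and humans lack (chrX:106143275-106160493), had 1318 and 1248 in transgenic pools at 48 hours, against 1101 and 1223 in control pools. Its 4-week signals were 1438 and 1146 in transgenic pools, against 1841 and 1193 in control pools. Tlr13 had the narrowest range of the endosomal receptors. The log2 difference was 0.14 at 48 hours, without overlap (SE 0.28, adjusted p = 0.984), and -0.20 at 4 weeks, with overlap (SE 0.28, adjusted p = 0.995).

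Tlr9, the receptor for unmethylated CpG DNA (chr9:106222598-106226876), had 140.5 and 36.8 in transgenic pools at 48 hours, against 163.3 and 40.7 in control pools. At 4 weeks it had 72.6 and 190.4 in transgenic pools, against 22 and 228.6 in control pools. Tlr9 lay above its array's median on 4 of 8 arrays. The pools of each group differed by 1.10 to 2.30 on the log2 scale, and the genotypes overlapped at both times. The log2 difference was -0.13 at 48 hours and 0.37 at 4 weeks, each with an SE of 0.86 and intervals from -2.04 to 1.78 and from -1.54 to 2.28, so changes of several fold in either direction lie within the error. Tlr8, whose human counterpart reads single-stranded RNA (chrX:167241123-167264329), had 27.9 and 22.2 in transgenic pools at 48 hours, against 31.8 and 14.4 in control pools. It had 19.6 and 10 in transgenic pools at 4 weeks, against 104.1 and 9.0 in control pools, and lay above its array's median on 1 of 8 arrays.

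Myd88, the adaptor of all these receptors but TLR3 (chr9:119335934-119340018), had 2895 and 2133 in transgenic pools at 48 hours, against 2199 and 1981 in control pools. After 4 weeks it had 2378 and 1453 in transgenic pools, against 2333 and 3887 in control pools. The genotypes overlapped at both times, at 4 weeks by 1 transgenic pool just above 1 control pool. The log2 difference was 0.25 at 48 hours (SE 0.32, 95% confidence interval -0.47 to 0.96, adjusted p = 0.979) and -0.69 at 4 weeks (SE 0.32, 95% confidence interval -1.40 to 0.03, adjusted p = 0.965). The second was the largest 4-week genotype difference of the 9 genes. Without control 4 weeks pool 2, the array with the beta-actin ratio of 37.0, it was -0.32. The 4-week difference minus the 48-hour one was -0.94 (SE 0.46, adjusted p = 0.988).

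**Figure D2:**
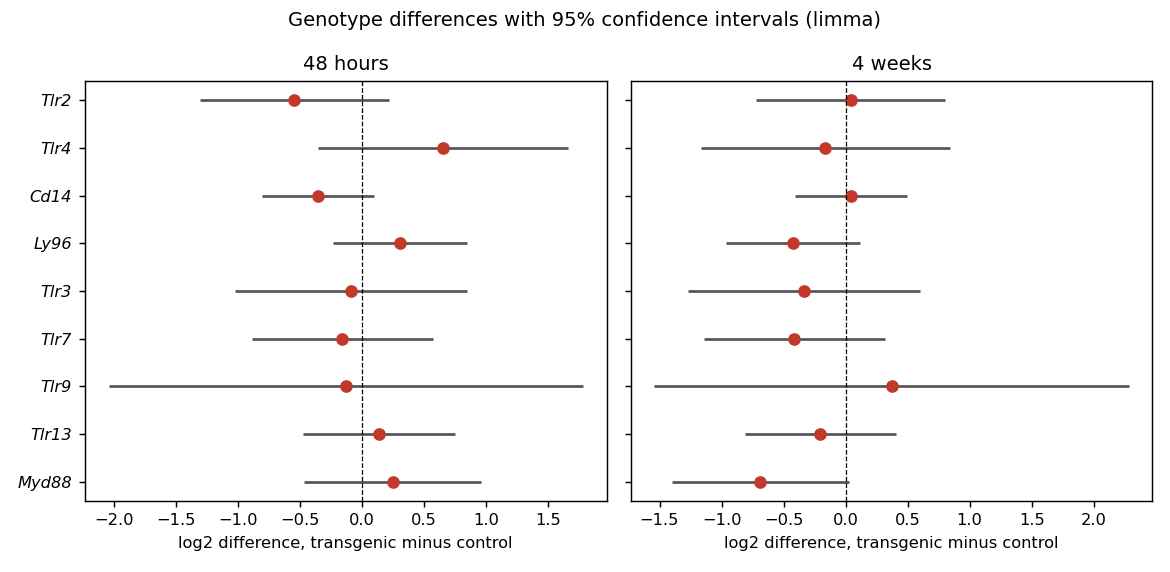
Log2 difference, transgenic minus control (x axis), with 95% confidence intervals from limma for the 9 genes tested, at 48 hours (left) and 4 weeks (right); the dashed line is 0. All 18 intervals contain 0, those of Tlr9 are the widest and that of Myd88 at 4 weeks ends at 0.03.

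At 48 hours 5 of the 9 genes had transgenic and control pools that did not overlap: Tlr4, Ly96 and Tlr13 were higher in transgenic pools, Tlr2 and Cd14 lower. Of all genes tested, 35% did not overlap at 48 hours, 18.9% higher and 16.1% lower. At 4 weeks Ly96 alone did not overlap, against 31.9% of all genes. The difference was positive for 4 of the 9 genes at 48 hours and for 3 at 4 weeks, where 54% and 48% of all genes were positive. The median log2 difference over the 9 genes was -0.09 at 48 hours, beside 0.04 over all genes, and -0.20 at 4 weeks, beside -0.02 over all genes. Over both times together, the differences ran from -0.28 for Tlr7 to 0.25 for Tlr4, with adjusted p-values of 0.957 to 0.997, and no gene of the 9 had groups apart (2.98% of all genes). No gene in the table was called for this contrast (0%) or for the difference between the times (0%).

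Markers of other cells moved alongside the 48-hour values. The summed signal of 6 neutrophil genes (of 7 listed, among them S100a8 and S100a9) was 4740 and 5147 in transgenic pools at 48 hours, against 10087 and 12702 in control pools, in the same order as Tlr2 and Cd14. It was 3516 and 2465 in transgenic pools at 4 weeks, against 4687 and 16900 in control pools. The 6 of 6 luminal epithelial genes measured, such as Krt8 and Krt18, summed to 11503 and 11850 in transgenic pools at 48 hours, against 3468 and 3712 in control pools, in the same order as Tlr4, Ly96 and Tlr13. At 4 weeks that sum was 10729 and 6220 in transgenic pools, against 13263 and 8284 in control pools. The 7 macrophage genes summed to 121316 and 120087 in transgenic pools at 48 hours, against 144865 and 124565 in control pools, also in the same order as Tlr2 and Cd14. They summed to 125631 and 126051 in transgenic pools at 4 weeks, against 148095 and 129347 in control pools, again without overlap. That sum was mostly Csf1r, at 68311 to 93065. Of the 7 genes, 4 were higher and 3 lower in transgenic pools at 48 hours, with a median log2 difference of 0.07. At 4 weeks 2 were higher and 5 lower. Adgre1 lay the other way from the sum at 4 weeks, without overlap. It had 13114 and 14627 in transgenic pools, against 9842 and 11955 in control pools. No marker was listed at 0, and the part of these cells in the receptor values was not tested.

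Time was compared within each genotype, 4 weeks against 48 hours. All mice were 6 weeks old at the start, so the age of the mice and the time on dimerizer cannot be told apart. In control pools Ly96 was 0.63 higher on the log2 scale at 4 weeks, without overlap (SE 0.24, 95% confidence interval 0.093 to 1.18, adjusted p = 0.758). It was the only one of the 9 genes with an unadjusted p under 0.05 in any contrast. Of all genes, 6.16% had one in this contrast, 4.07% in the genotype contrast at 48 hours, 5.08% in that at 4 weeks, 4.74% for the difference between the times, 4.58% over both times and 2.19% between the times in transgenic pools. Myd88 was 0.52 higher at 4 weeks in control pools, also without overlap (SE 0.32, adjusted p = 0.872), and 18% of all genes were higher without overlap. The other 7 genes overlapped between the times in control pools, where 31.8% of all genes did not. Only F5, the coagulation factor V gene, named here after its value was seen, was called in control pools (0.00767% of all genes), with a log2 difference of -2.36 (SE 0.26, adjusted p = 0.0400).

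Transgenic pools had no called gene between the times (0% of all genes). Tlr4 was the only one of the 9 genes without overlap there, with 2151 and 1543 at 4 weeks against 2410 and 2838 at 48 hours, a log2 difference of -0.51 (SE 0.45). The adjusted p-values of this contrast were all close to 1. By comparison 28.5% of all genes had times apart in transgenic pools, 14.5% with 4 weeks lower. Tlr2 differed by 0.48 (SE 0.34), Tlr9 by 0.49 (SE 0.86) and Myd88 by -0.41 (SE 0.32), all with overlap. Ly96, which was 0.63 higher at 4 weeks in control pools, differed by -0.10 in transgenic pools (SE 0.24).

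The spread between pools of 1 group was as wide as most of these differences. In 8 of the 9 genes the largest difference between the pools of a group exceeded the widest gap between any group means. The share of all genes with this trait is not given here, so whether it is particular to these genes cannot be said. For Tlr4 the control pools at 4 weeks differed by 1.65 on the log2 scale, beside a widest gap between group means of 0.65, and for Tlr9 by 2.30, beside 0.49. The exception was Ly96, with a largest pool difference of 0.34 and a widest gap of 0.63. Read against the pools of the groups compared alone, Tlr2 at 48 hours had pool differences of 0.09 in transgenic and 0.36 in control pools beside a gap of 0.54, and Tlr4 0.23 and 0.54 beside a gap of 0.65. The median within-group SD of the 9 genes was 0.39 on the log2 scale, beside 0.37 over all genes.

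Control 4 weeks pool 1 had the highest signal of all 8 arrays for 6 of the 10 genes: Tlr3, Tlr4, Tlr7, Tlr8, Tlr13 and Ly96. Cd14, Tlr2, Tlr9 and Myd88 were highest elsewhere. The same pool had a summed monocyte signal (3 of 5 genes) of 38677, against 9420 to 21354 on the other arrays. That sum was mostly Plac8, at 34767 on this pool; Ccr2 (2463) and Chil3 (1447) did not peak there, and the part of monocytes was not tested. Leaving it out turned the sign of the 4-week difference for 7 of the 9 genes, among them Tlr4 to 0.66 and Tlr7 to 0.057, but not for Ly96 (-0.26) or Myd88 (-1.05). Leaving out transgenic 4 weeks pool 2, the pool with the conflicting description, turned it for 5 genes, Tlr2 to -0.49, Tlr3 to 0.075, Tlr4 to 0.073, Tlr9 to -0.18 and Cd14 to -0.16.

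**Figure D3:**
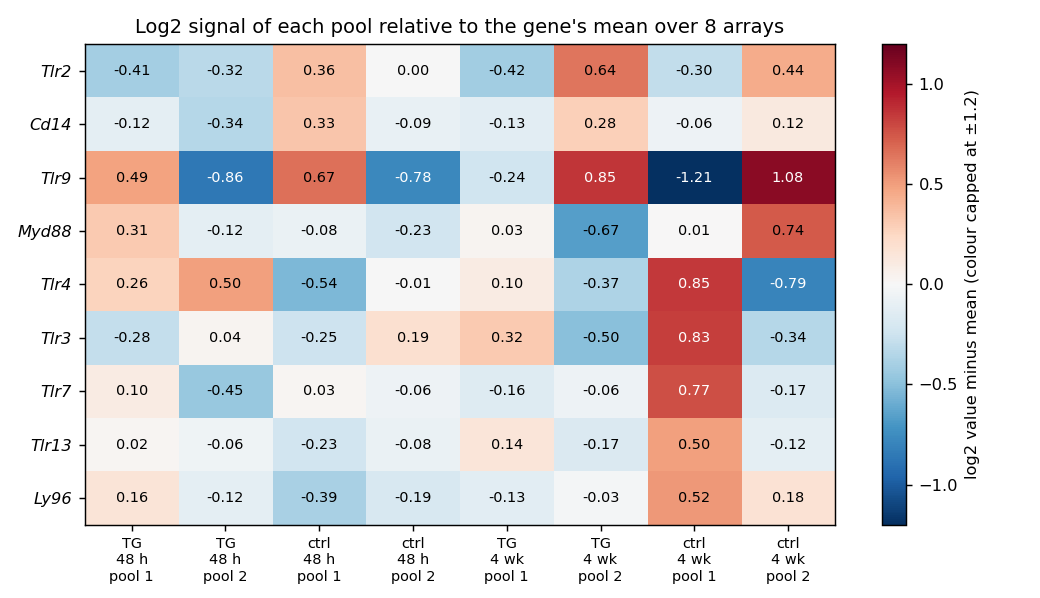
Log2 value of each pool minus the gene's mean over 8 arrays (colour, capped at 1.2 in either direction, with the value printed) for the 9 genes tested, in rows, and the pools in columns, transgenic (TG) left of control (ctrl) at each time. Control 4 weeks pool 1 is above the mean for Tlr4 (0.85), Tlr3 (0.83), Tlr7 (0.77), Ly96 (0.52) and Tlr13 (0.50), and Tlr9 runs from -1.21 to 1.08.

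Tlr9 and Tlr4 had the widest log2 ranges over the 8 arrays, and the genes nearest to each were found by the root mean square difference after centring each gene on its mean. Nearest to Tlr9 was Spib at 0.27, where the root mean square of Tlr9 itself was 0.83. Spib encodes a transcription factor of B cells and plasmacytoid dendritic cells, both known for Tlr9. It had 109.9 and 64.5 in transgenic pools at 48 hours, against 183.3 and 64.3 in control pools, and 76.7 and 163.3 in transgenic pools at 4 weeks, against 40.0 and 276.5 in control pools. The higher pool of each group was the same for Spib as for Tlr9. Mobp, a myelin gene, followed at 0.31 and Faah, which breaks down fatty acid amides, at 0.35. Like Tlr9, all of these genes had low signals, on both sides of the array medians of 96.4 to 126.9. The plasmacytoid dendritic cell genes, 5 of 5 measured with Spib among them, summed to 7137 and 7843 in transgenic pools at 48 hours, against 7000 and 7127 in control pools. At 4 weeks that sum was 7014 and 5821 in transgenic pools, against 9488 and 8256 in control pools. In each of the 4 groups its higher pool was the one where Tlr9 was lower. It was mostly Tcf4, at 5199 to 8090, and the part of plasmacytoid dendritic cells was not tested. The B cell genes, 4 of 5, summed to 849 and 532 in transgenic pools at 48 hours, against 1070 and 680 in control pools. They summed to 636 and 421 in transgenic pools at 4 weeks, against 357 and 940 in control pools, so that the higher pool was the same as for Tlr9 in 3 of the 4 groups; the part of B cells was not tested.

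Nearest to Tlr4 were Chrdl1 at 0.14, Hsbp1 at 0.18 and Hba-a1, a haemoglobin gene, at 0.19, where the root mean square of Tlr4 itself was 0.51. Chrdl1, at 70.5 to 213.7, and Hba-a1, at 24.9 to 131.9, also had low signals. Hsbp1, whose protein binds heat shock factor, had 3307 and 3022 in transgenic pools at 48 hours, against 1589 and 2321 in control pools. At 4 weeks it had 1883 and 1745 in transgenic pools, against 4333 and 1475 in control pools. These likenesses are descriptions over 8 arrays that share their libraries, picked as the nearest of 13041 genes.

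**Figure D4:**
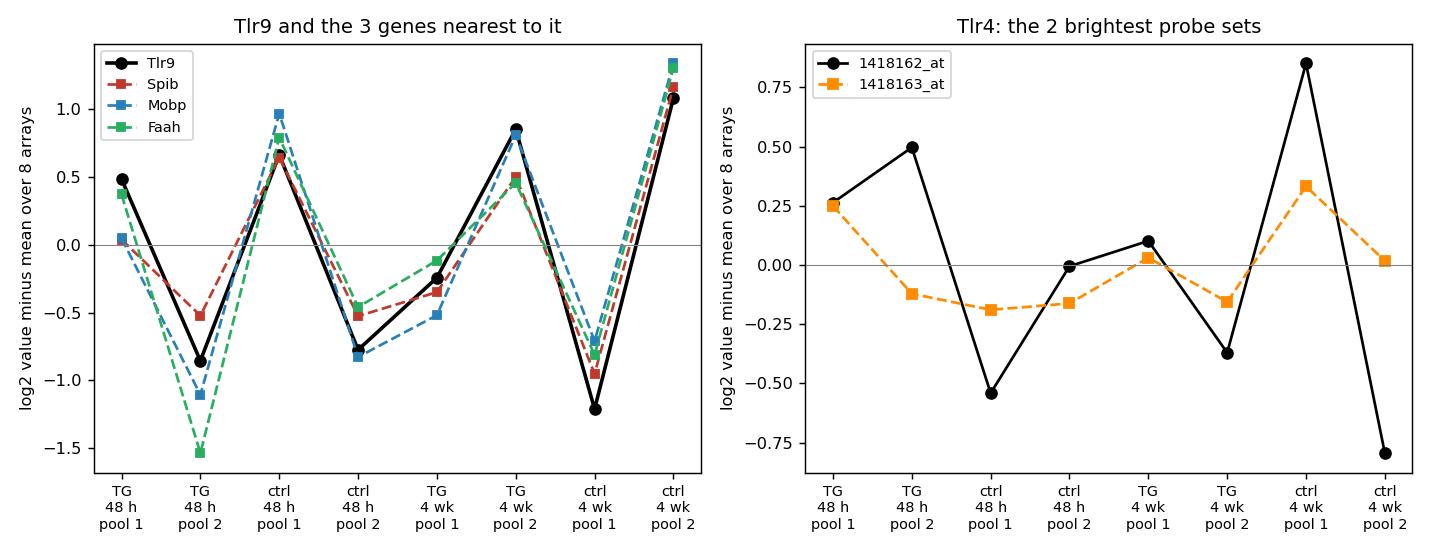
Log2 value minus the mean over 8 arrays (y axis) for Tlr9 and its 3 nearest genes (left) and for the 2 brightest probe sets of Tlr4 (right), with the 8 pools on the x axis. Tlr9 and Spib have their higher pool in common in each group, and the Tlr4 probe sets differ most on control 4 weeks pool 2.

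The receptors' pathway was followed through 83 further genes in 7 lists, of which 72 were measured. None of the 72 was called in either genotype contrast. At 48 hours 7 of the 72 had transgenic pools above and 30 below the control pools without overlap, where 18.9% and 16.1% of all genes did, and their median log2 difference was -0.15. At 4 weeks 7 were above and 13 below, where 14.7% and 17.2% of all genes were, with a median of 0.00.

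Other receptors and co-receptors were measured for 7 of 9 genes, of which 1 was higher in transgenic pools at 48 hours and 2 at 4 weeks. Cd180, a TLR4-like receptor of lymphoid and myeloid cells, had 296 and 425 in transgenic pools at 48 hours, against 823 and 506 in control pools, a log2 difference of -0.81 (SE 0.33, adjusted p = 0.976). Tlr6, which pairs with TLR2, had 309 and 340 in transgenic pools at 48 hours, against 551 and 409 in control pools (-0.51, SE 0.29, adjusted p = 0.976). It had 412 and 368 in transgenic pools at 4 weeks, against 479 and 560 in control pools (-0.38, SE 0.29, adjusted p = 0.986), and was thus lower without overlap at both times. Tlr1, the other partner of TLR2, had 639 to 973 over all arrays, and Tlr5, the flagellin receptor, 510 to 908. Lbp, which carries lipopolysaccharide to CD14, had 186 and 240 in transgenic pools at 48 hours, against 53.5 and 163 in control pools (0.92, SE 0.59, adjusted p = 0.976). Ly86, the partner of CD180, had 9948 to 13913, and Cd36, a scavenger receptor that serves TLR2, 8182 to 14296. Tlr12 was dim at 5.4 to 82.2, and Tlr11 had no probe set of its own symbol.

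Among the genes for trafficking and processing, Unc93b1, which carries the nucleic acid receptors to endosomes, had 1535 and 1710 in transgenic pools at 48 hours, against 2443 and 1801 in control pools (log2 difference -0.37, SE 0.25, adjusted p = 0.976). Cnpy3, a chaperone of Toll-like receptors, had 123 and 153 in transgenic pools at 48 hours, against 187 and 305 in control pools (-0.69, SE 0.44, adjusted p = 0.976). Hsp90b1, the chaperone gp96 that acts with Cnpy3, lay the other way, with 12740 and 11277 in transgenic pools at 48 hours, against 8591 and 9904 in control pools (0.38, SE 0.22, adjusted p = 0.976). Of the 9 genes, 4 were higher and 5 lower in transgenic pools at each time, where 46% of all genes were lower at 48 hours and 52% at 4 weeks.

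The adaptors and proximal signalling genes were measured for 19 of 24, of which 10 were higher in transgenic pools at 48 hours and 11 at 4 weeks. Ticam1, which encodes TRIF, had 141 and 163 in transgenic pools at 48 hours, against 315 and 224 in control pools (log2 difference -0.70, SE 0.44, adjusted p = 0.976). Ikbke, a kinase that activates interferon regulatory factors, had 53.9 and 55.4 in transgenic pools at 4 weeks, against 213 and 283 in control pools. Its difference of -1.70 (SE 0.39, adjusted p = 0.673) was the largest of the list. At 48 hours Ikbke had 192 and 232 in transgenic pools, against 206 and 202 in control pools. Tank lay the other way without overlap, with 1605 and 3321 in transgenic pools at 4 weeks, against 1168 and 1377 in control pools. Its log2 difference was 0.85 (SE 0.32, adjusted p = 0.965). Irak1, a kinase that MyD88 recruits, had 1412 and 1807 in transgenic pools at 4 weeks, against 2225 and 2725 in control pools (-0.61, SE 0.23, adjusted p = 0.965). All 4 transgenic pools of Irak1 lay below all 4 control pools over both times (-0.39, SE 0.17, adjusted p = 0.957), as did those of Dok3, an inhibitor of TLR signalling (-0.43, SE 0.21, adjusted p = 0.957), where 1.5% of all genes did.

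Negative regulators were measured for 9 of 11 genes, of which 4 were higher in transgenic pools at 48 hours and 5 at 4 weeks. Tnip1, a partner of the deubiquitinase A20, had 916 and 1217 in transgenic pools at 48 hours, against 2585 and 2081 in control pools (log2 difference -1.11, SE 0.29, adjusted p = 0.976). It had 1448 and 2304 in transgenic pools at 4 weeks, against 1195 and 1436 in control pools (0.47, SE 0.29, adjusted p = 0.986). Its order turned between the times, without overlap at either, and the test of that turn gave 1.58 (SE 0.41, adjusted p = 0.988). Trafd1, an interferon-induced inhibitor, had 1453 and 1368 in transgenic pools at 4 weeks, against 3400 and 2312 in control pools (-0.98, SE 0.26, adjusted p = 0.893).

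All 12 NF-kB target genes were measured. At 48 hours 11 of the 12 were lower in transgenic pools, 10 of them without overlap (16.1% of all genes), with a median log2 difference of -0.42. Ptgs2, which makes prostaglandins, had 4839 and 6452 in transgenic pools at 48 hours, against 9579 and 8703 in control pools (-0.71, SE 0.33, adjusted p = 0.976). At 4 weeks 8 of the 12 were higher, with a median of 0.21. Transgenic 4 weeks pool 2, the pool with the conflicting description, was the higher transgenic pool for all of them but Il6 and Nfkbiz. Ccl3 had 15007 on it against 8362 on pool 1, and Ptgs2 9543 against 5918. In control pools at 4 weeks, pool 2 was likewise the higher one for all of these genes but Il6 and Nfkbiz. There Ccl3 had 9130 on pool 2 against 5316 on pool 1, and Ptgs2 6287 against 3276. No count without transgenic 4 weeks pool 2 is given here. Il1b, the interleukin 1 beta gene, had 15582 and 28089 in transgenic pools at 4 weeks, against 9627 and 14295 in control pools (0.83, SE 0.29, adjusted p = 0.965). The 4-week difference minus the 48-hour one was positive for 12 of 12 genes, with a median of 0.59, where 45.7% of all genes were positive, and none was called. This contrast takes away the 48-hour differences, negative for 11 of the 12, so its signs are not a result separate from that count. The 12 genes share the 8 arrays and are not independent of each other, and the neutrophil sums given above lay in the same order as these genes at 48 hours; their part was not tested.

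Target genes of TRIF and interferon were measured for 6 of 7. At 48 hours 1 of the 6 was higher and 5 lower in transgenic pools, and at 4 weeks 3 were higher and 3 lower. Ifnb1, the interferon beta gene, had 89.7 and 86.4 in transgenic pools at 48 hours, against 211 and 225 in control pools (log2 difference -1.07, SE 0.41, adjusted p = 0.976). Rsad2, which encodes the antiviral protein viperin, had 6359 and 5582 in transgenic pools at 4 weeks, against 18431 and 13801 in control pools. Its difference of -1.42 (SE 0.27, adjusted p = 0.488) had the smallest p of the 72 pathway genes at 4 weeks. Ifit1, another antiviral gene, had 1212 and 890 in transgenic pools at 4 weeks, against 7218 and 1744 in control pools (-1.75, SE 0.54, adjusted p = 0.965), and Oasl1 differed by -1.15 (SE 0.32, adjusted p = 0.950). Ifnb1 lay the other way at 4 weeks, with 161 and 208 in transgenic pools, against 101 and 138 in control pools (0.52, SE 0.41, adjusted p = 0.986), and Cxcl10 and Ccl5 differed by 0.09 and 0.07 with overlap. Irf7, the interferon regulatory factor of the TLR7 and TLR9 pathway, had 858 and 629 in transgenic pools at 4 weeks, against 2916 and 769 in control pools, with overlap (SE of the log2 difference 0.52, adjusted p = 0.981). Control 4 weeks pool 1 was the highest pool for Rsad2, Ifit1, Oasl1 and Irf7, as it was for Tlr3, Tlr4, Tlr7, Tlr8, Tlr13 and Ly96. The other measured target genes of TRIF and interferon, Ccl5, Ifnb1 and Cxcl10, did not peak on this pool. Ccl5 had its lowest signal of all arrays there, 374.6, against 2319.1 at its highest. Ifnb1 had 100.7 there, the lowest of its 4-week signals, and Cxcl10 had 1881, within its range of 1692 to 2998.

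**Figure D5:**
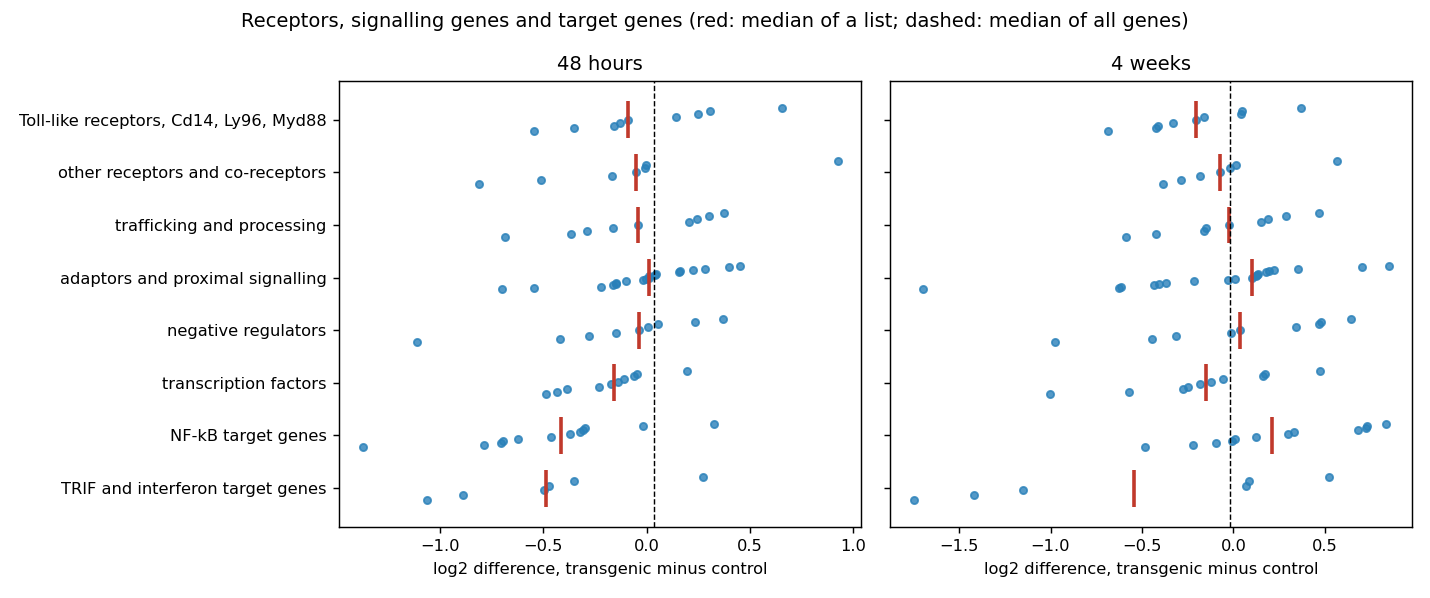
Log2 difference, transgenic minus control (x axis), at 48 hours (left) and 4 weeks (right), for the receptor genes and the 7 pathway lists; each point is a gene, red bars are list medians and the dashed line is the median of all genes. The NF-kB target genes have medians of -0.42 at 48 hours and 0.21 at 4 weeks, beside -0.09 and -0.20 for the receptor genes.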

How the data were processed

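The authors deposited 1 linear intensity for each probe set of the 8 arrays. The submitters' processing notes name MAS5 for them, without a version. RNA was amplified in 2 cycles, per the labels' protocols, which shortens transcripts and makes signals depend on the distance of a probe set from the 3' end. The platform annotation gives 1 symbol for 34945 of the 45101 probe sets, several for 932 and none for 9160, beside 64 controls; 34741 of the 34945 matched RefSeq by gene ID. Per gene the probe set with the highest mean signal was used, and 13041 genes passed the filter, a signal above the array's median on at least 2 arrays. Signals were turned into log2(signal + 30.8) and fitted with limma 3.58.1 in R 4.3.3, with 4 group means and a trend in the prior variance. Residual degrees of freedom were 4, to which the prior contributed 6.21 (median). P-values were two-sided. The code was tested on simulated data. Pathway genes were named by a rule on the smallest p-values, up to 4 of each list in a genotype contrast and 2 in a time contrast, and part of them is given; all genes of the other receptors were named. The genes, lists and rules were chosen with earlier results of these data known. Pool numbers were not used to pair pools. Alternatives covered normalization, offset, filter, probe set, prior, array weights, the beta-actin ratio as a covariate, the pool number as a block, 1 time alone and leaving out each pool. Plots were made with matplotlib 3.10.9 (Python 3.11.15).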

Additional observations from a re-analysis of the deposited data

How the results depend on the processing

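No receptor gene passed the threshold in any of 1014 recomputed differences, the lowest adjusted p being 0.312, and 79 of them turned sign, 55 of these with 1 pool left out. At 48 hours Tlr9 turned to 0.026 with quantile normalization and to 0.20 with the beta-actin ratio as a covariate, and Tlr3 to 0.31 with its other probe set. At 4 weeks other probe sets turned Tlr3 to 0.40, Tlr7 to 0.21 and Tlr4 to 1.01, the last from a dim probe set at 7.3 on control 4 weeks pool 2, while the second bright Tlr4 probe set (-0.24) and another Tlr7 probe set (-0.34) kept the sign. With 1 pool left out the 48-hour differences ran from -0.31 to 0.13 for Tlr3, from -0.43 to 0.12 for Tlr7 and from -0.85 to 0.59 for Tlr9. Those at 4 weeks ran from -0.49 to 0.57 for Tlr2, -0.92 to 0.25 for Tlr3, -0.99 to 0.66 for Tlr4, -0.88 to 0.057 for Tlr7, -0.78 to 1.52 for Tlr9, -0.51 to 0.10 for Tlr13 and -0.16 to 0.25 for Cd14. Ly96 kept its sign in this check, from 0.17 to 0.44 at 48 hours and from -0.59 to -0.26 at 4 weeks, as did Myd88, from 0.031 to 0.47 and from -1.05 to -0.32. The median of the 9 genes ran from -0.092 to 0.18 at 48 hours, from -0.51 to -0.045 at 4 weeks, from -0.65 to 0.0071 for the difference between the times, from -0.18 to 0.042 between the times in transgenic pools and from 0.038 to 0.65 in control pools. The beta-actin covariate moved it to -0.48 at 4 weeks and to -0.50 for the difference between the times. Counts of called genes stayed at 0 or 1 for every contrast with 1 pool left out, except 4 weeks minus 48 hours in control pools, where the range was 0 to 7 and the 7 came without control 4 weeks pool 2. That contrast gave 7 calls with the beta-actin covariate and 0 with the stricter filter, without the trend or with array weights. The arrays of 1 time alone gave 1 call at 48 hours and 1 at 4 weeks. The sample titles do not say whether same-numbered pools share more than a number. The correlation of their deviations was 0.02 at 48 hours and 0.12 at 4 weeks, over 2 pairs, too few to decide this. The replicate block gave 2 calls at 4 weeks (Serpinb2 and Dnajc17) and 4 between the times in control pools (F5, Serpinb2, Cd8a and Cx3cr1), named after their values were seen, and 0 in the other contrasts. The causes of these changes were not tested. With 2 pools a group, the number of arrays limits precision: a 95% interval for Tlr9 spans almost 4 log2 units. Without detection calls, the low signals of Tlr8 and Tlr9 could not be told from absence.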
